A study of Mus musculus with 6 samples.

Results

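The genes of cholesterol and fatty acid synthesis were examined as 1 set of 32 genes: 5 regulators, 7 enzymes from acetyl-CoA to the isoprenoids, 11 from squalene to cholesterol, 1 sterol carrier, 3 enzymes of fatty acid synthesis and 5 of desaturation and elongation. They were chosen by gene name, with earlier results of these data known. Of 46632 probes on the array, 59 carried one of these names or an older one, among them Msmo1, the current name of Sc4mol. In all, 48 of these probes lay above the background limit on all 6 arrays and 11 on 2 arrays or fewer, which left 30 measured genes. The background limit is the 95th percentile of the background intensities of an array, and a probe was kept when it exceeded that limit on at least 3 arrays.

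RNA came from embryoid bodies, suspended aggregates of differentiating mouse embryonic stem (ES) cells, taken at day 3. Of 6 Illumina arrays, 3 were labelled wild type (E14 ES cells) and 3 were labelled knockout (endoglin knockout ES cells). All 6 carry the strain label C57BL/6, whereas E14 is a line of a 129 background. Whether each genotype was 1 clone, how the knockout allele was made and whether replicates were separate cultures are not stated in those labels, and a p-value therefore covers the spread between these arrays alone. Endoglin assists TGF-beta and BMP receptors in binding their ligands, and the series asked how its loss alters expression at this stage.

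Cholesterol is built from acetyl-CoA through mevalonate, isoprenoids, squalene and lanosterol. The transcription factor SREBP2, encoded by Srebf2, drives most of these enzymes, and SREBP1, encoded by Srebf1, drives those of fatty acid synthesis. When membrane sterol is low, the escort protein SCAP carries SREBP to the Golgi, where proteases release the active part, and when sterol is plentiful INSIG proteins hold SCAP in the endoplasmic reticulum. Dividing embryonic cells make membrane lipid continuously, and sterols are also needed for Hedgehog signalling in the embryo.

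The arrays did not fall apart by label. Eng, the targeted gene, measured 87.0, 90.6 and 44.4 on the arrays labelled wild type 1, 2 and 3, and 73.5, 45.4 and 48.7 on those labelled knockout 1, 2 and 3, in intensity units of the authors on a linear scale. The array labelled knockout 1 thus lay beside wild type 1 and 2, and the array labelled wild type 3 lay beside knockout 2 and 3. This probe was above the background limit on 4 arrays. Wild type 3 and knockout 2 lay below the limit and knockout 3 just above it. The second Eng probe was above the limit on 0 arrays, and whether either lies in the deleted part is not stated there. Wild type 1, knockout 1 and wild type 2 occupied slide positions A, B and C, and knockout 2, wild type 3 and knockout 3 occupied D, E and F, so the position on the slide and the split between the arrays cannot be told apart. The embryoid body markers Pou5f1 (2938 to 4687), T (3591 to 5612) and Mesp1 (549 to 3723) were above the limit throughout, and 5 of 7 such markers (T, Mixl1, Mesp1, Etv2 and Tal1) were higher on every array of positions A to C than on any of D to F, an order shown by 14.7% of all features. Pou5f1 lay the other way, as 15.3% of features did, and Kdr overlapped. Of the 5 measured extraembryonic endoderm markers, 4 were higher on A to C (Gata4, Gata6, Sox17 and Sox7), while Dab2 lay the other way and Afp was not above the limit. Of 6 fibroblast markers, Col1a1, Col1a2, Postn and Lum were below the limit, Dcn lay around it (39.9 to 49.3) and Thy1 measured 161 to 198. The part of cell composition in the results was not tested. In bulk RNA, fewer cells of a type and less RNA per cell cannot be told apart. All directions follow the labels as deposited. Whether the labels of wild type 3 and knockout 1 were exchanged was not tested, and an exchange would alter every difference given as knockout minus wild type.

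No lipid synthesis gene passed the test between the labels. In limma's fit across all 16618 features (genes and unnamed probes), 0 of 30 members had a higher and 0 a lower level under the knockout label at an adjusted p under 0.05, where 0.0% of all features were called in either direction. At an unadjusted p under 0.05 there were 0 members and 2.18% of all features. The median log2 difference, knockout minus wild type, was -0.06 over the members and 0.0028 over all features, with members between -0.13 and 0.10. Lower means in the knockout label were found for 18 of 30 members, or 60.0%, beside 48.5% of all features. The 3 arrays of one label lay wholly on one side of the other 3 for 2 members, or 6.67%, beside 6.94% of features.

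**Figure D1:**
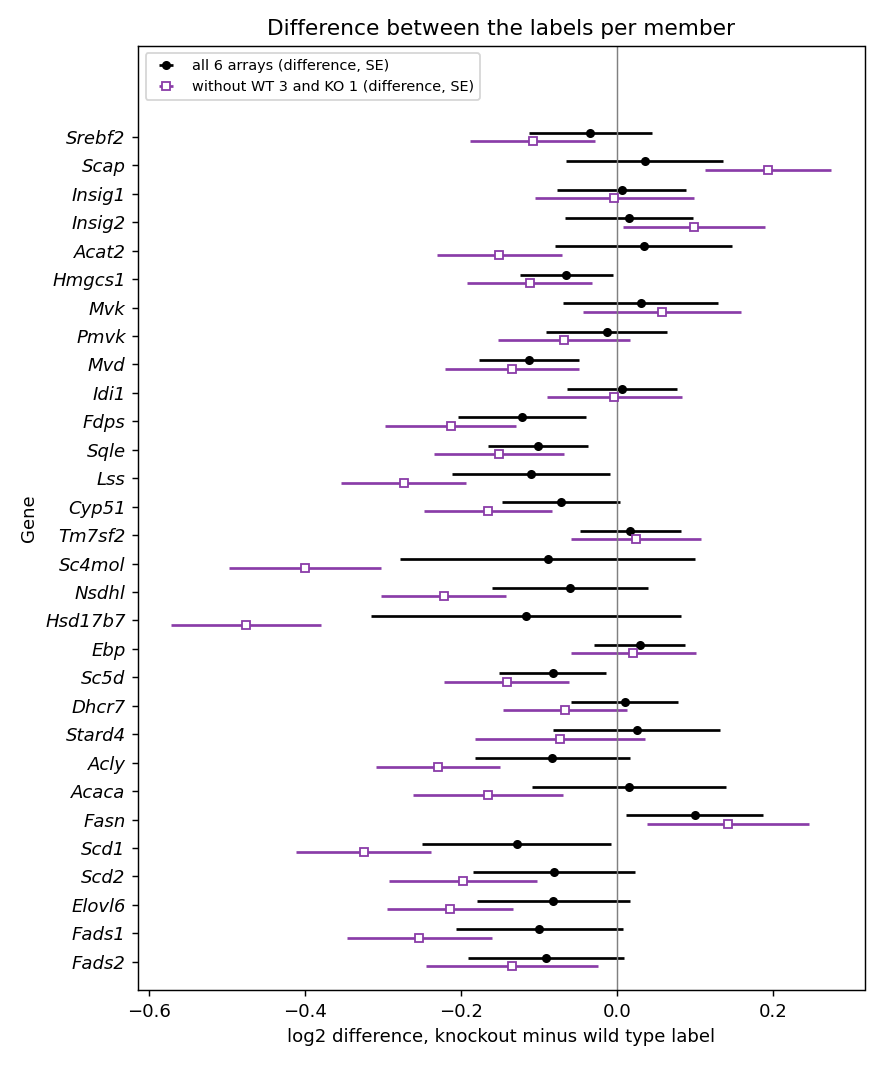
Log2 difference between the knockout and wild type labels (x axis) for the 30 measured genes, with all 6 arrays (filled points) and without the arrays labelled wild type 3 and knockout 1 (open squares). Bars are standard errors. With 6 arrays the differences lie between -0.13 and 0.10, and without those 2 arrays 24 of 30 lie below 0.

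Leaving out the arrays labelled wild type 3 and knockout 1, which had been seen to stand apart from their labels, gave other values. Hsd17b7 then differed by -0.48 (SE 0.10, limma adjusted p = 0.011), Sc4mol by -0.40 (SE 0.10, adjusted p = 0.028) and Scd1 by -0.33 (SE 0.09, adjusted p = 0.043). These were 3 of 30 members lower, beside 4.28% of all features, and 0 of 30 higher, beside 3.78%. The median of the members was -0.14 and that of all features 0.0088, and 24 of 30 members had the lower mean in the knockout label, beside 47.2% of features. Because the arrays were left out for their values, these figures are no independent evidence of a knockout effect. With the slide position set (A to C or D to F) as a covariate, 0 members were called, beside 0.0% of all features, the median was -0.0037 and the range was -0.10 to 0.13. Within positions A to C, knockout 1 lay above the mean of the 2 wild type arrays for 20 of 30 members (median 0.02), beside 50.3% of all features. Within D to F, the mean of the 2 knockout arrays lay below wild type 3 for 17 of 30 (median -0.02), beside 49.6%. In the comparison of 4 arrays, both wild type arrays lay in A to C and both knockout arrays in D to F, so label and position cannot be told apart there. Had the labels of wild type 3 and knockout 1 been exchanged, which was not tested, each set of positions would hold a single genotype. The values within positions and with the position covariate would then carry no knockout difference.

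By array, many members took the order seen for Eng. The median deviation of the members from their own 6-array mean, in log2 units, was 0.06, 0.04 and -0.04 on the arrays labelled wild type 1, 2 and 3 and 0.08, -0.08 and -0.08 on those labelled knockout 1, 2 and 3. Over all features the same medians stayed between -0.0036 and 0.0046. Positions A to C were all above D to F for 14 of 30 members, or 46.7%, where 14.7% of all features showed this. The reverse held for 1 of 30, or 3.33%, where 15.3% of features showed it. These sets of 3 arrays were drawn with earlier results of these data known, so these are descriptions without a test. The 14 genes were Acat2 and Hmgcs1 of the early steps, Lss, Cyp51, Sc4mol, Nsdhl, Hsd17b7, Sc5d and Dhcr7 of the later sterol steps, and Acly, Acaca, Scd1, Elovl6 and Fads1 of the fatty acid branch. Scap was the single gene that lay the other way.

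**Figure D2:**
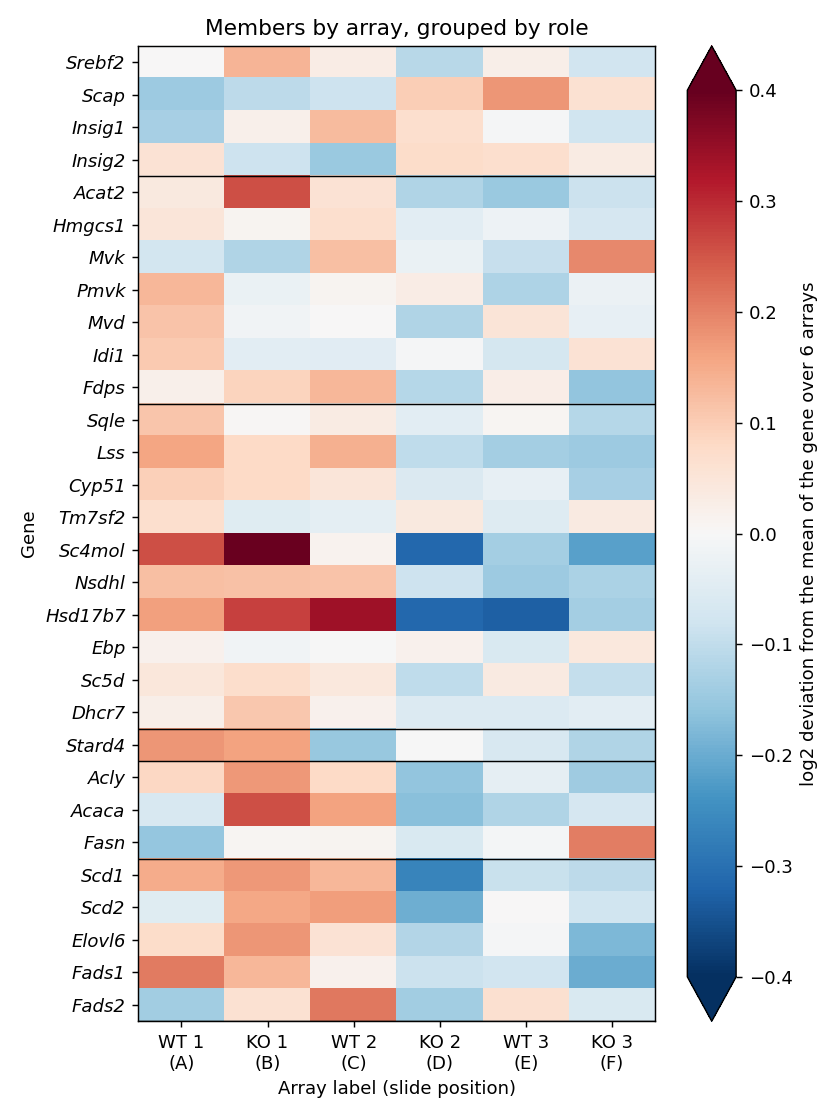
Log2 deviation of each measured gene (rows, grouped by role) from its own mean over the 6 arrays (columns, in slide order A to F, with the label of each array). Red is above and blue below the mean. Acat2, Hmgcs1, Lss, Cyp51, Sc4mol, Nsdhl, Hsd17b7, Dhcr7, Acly, Scd1, Elovl6 and Fads1 are red on WT 1, KO 1 and WT 2 and blue on KO 2, WT 3 and KO 3. Scap shows the opposite, and the other rows are mixed.

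Of the 4 measured regulators, 0 were higher on A to C and 1 was higher on D to F, where the shares over all features were 14.7% and 15.3%, too few genes to set them apart from other features. Srebf2, the sterol-responsive transcription factor, measured 424, 433 and 431 on the wild type arrays and 468, 391 and 401 on the knockout arrays, always given for replicates 1, 2 and 3 in this order. For this brightest Srebf2 probe the labels overlapped, with the highest value on knockout 1 and a log2 difference of -0.03 (SE 0.08). Its other probes are given below. Scap, the sterol sensor that escorts SREBP, measured 203, 214 and 260 against 210, 245 and 238. Its 3 highest values were on wild type 3, knockout 2 and knockout 3, and it differed by 0.03 (SE 0.10). Insig1 and Insig2 encode the anchors that retain SCAP. Insig1 measured 163, 199 and 180 against 184, 190 and 170 (difference 0.01, SE 0.08), and Insig2 measured 236, 201 and 237 against 212, 239 and 231 (difference 0.02, SE 0.08). Neither gene sorted by label or by position. The single Srebf1 probe was above the limit on 0 arrays, at 28.3 to 39.5, so SREBP1 transcripts were not detectable with it.

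Of the 7 enzymes from acetyl-CoA to the isoprenoids, 0 passed the test and 4 had lower means in the knockout label. Acat2 joins acetyl-CoA units in the cytosol. It measured 1435, 1456 and 1259 on the wild type arrays and 1673, 1284 and 1315 on the knockout arrays, with the peak on knockout 1 (difference 0.03, SE 0.11). Hmgcs1, which makes HMG-CoA, was among the steadiest members at 14769, 14943 and 14080 against 14367, 13863 and 13622, and its highest value was 1.10 times its lowest. It differed by -0.07 (SE 0.06), although A to C lay above D to F. The platform annotation assigns its probe to Hmgcs1, but a second deposited table of gene symbols names it LOC100040592.

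Mevalonate is phosphorylated by Mvk and Pmvk and decarboxylated by Mvd. Mvk measured 174, 202 and 171 against 167, 180 and 213 (difference 0.03, SE 0.10), and Pmvk measured 288, 263 and 238 against 256, 267 and 256 (difference -0.01, SE 0.08). Both overlapped between labels and between position sets. This Mvk probe is named LOC637711 in the second deposited table. Mvd measured 337, 310 and 322 against 306, 283 and 302. It was 1 of the 2 members whose labels did not overlap, with 8.43 ± 0.06 (SD, n = 3) log2 units under wild type and 8.32 ± 0.06 (SD, n = 3) under knockout, and the difference of -0.11 (SE 0.06) had a limma adjusted p of 0.999. Idi1, the isomerase of the isoprenoid unit, measured 81.6, 71.5 and 69.8 against 71.5, 74.1 and 78.3 (difference 0.01, SE 0.07). Fdps, which makes farnesyl diphosphate, measured 6332, 6848 and 6360 against 6632, 5767 and 5585. Knockout 2 and 3 held its lowest values, knockout 1 lay among the wild type arrays, and the difference was -0.12 (SE 0.08).

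The steps from squalene to cholesterol held the 2 members with the widest range over the arrays, Sc4mol and Hsd17b7, and 7 of the 10 measured genes had A to C above D to F, beside 14.7% of all features. Fdft1, squalene synthase, was not measured: its single probe was above the limit on 1 array, at 48.5, and the second deposited table names that probe Ctsb. Sqle, the epoxidase that commits squalene to sterols, measured 2176, 2059 and 2023 on the wild type arrays and 2019, 1952 and 1856 on the knockout arrays. It was the other member without overlap of the labels, at 11.04 ± 0.05 (SD, n = 3) and 10.94 ± 0.06 (SD, n = 3) log2 units, a difference of -0.10 (SE 0.06, limma adjusted p = 0.999). Lss, which closes the sterol rings, measured 679, 672 and 549 against 642, 563 and 546, with wild type 3 beside knockout 2 and 3 (difference -0.11, SE 0.10).

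Lanosterol is then demethylated by Cyp51, Sc4mol and Nsdhl together with Hsd17b7. Cyp51 measured 1782, 1726 and 1630 against 1766, 1602 and 1521 (difference -0.07, SE 0.08). Sc4mol, the methyl sterol oxidase, measured 2471, 2082 and 1874 against 2722, 1654 and 1772, and its highest value was 1.65 times its lowest. It was highest on knockout 1 and lowest on knockout 2, so the knockout label held both ends of its range (difference -0.09, SE 0.19). Nsdhl, the decarboxylating dehydrogenase, measured 2618, 2608 and 2174 against 2614, 2273 and 2200, in 2 tight trios that crossed the labels (difference -0.06, SE 0.10). Hsd17b7, the ketoreductase of this step, measured 607, 688 and 425 against 656, 430 and 488. Its highest value was 1.62 times its lowest, wild type 3 was the lowest array, and the difference was -0.12 (SE 0.20).

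The remaining measured enzymes from squalene to cholesterol varied less. Tm7sf2, a sterol reductase, measured 260, 240 and 238 against 238, 255 and 254 (difference 0.02, SE 0.06). Ebp, the sterol isomerase, kept within 1.08 times over the 6 arrays, from 491 to 528 (difference 0.03, SE 0.06). Neither of them followed the position sets. Sc5d, the desaturase of the B ring, measured 84.0, 83.7 and 83.3 against 86.0, 73.6 and 74.1 (difference -0.08, SE 0.07), with wild type 3 barely below wild type 2. Dhcr7, which makes cholesterol by the final reduction of one branch, measured 188, 187 and 177 against 201, 177 and 179 (difference 0.01, SE 0.07). Stard4, a soluble sterol carrier, measured 1446, 1148 and 1221 against 1429, 1274 and 1173, where wild type 2 was the lowest array (difference 0.03, SE 0.11).

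**Figure D3:**
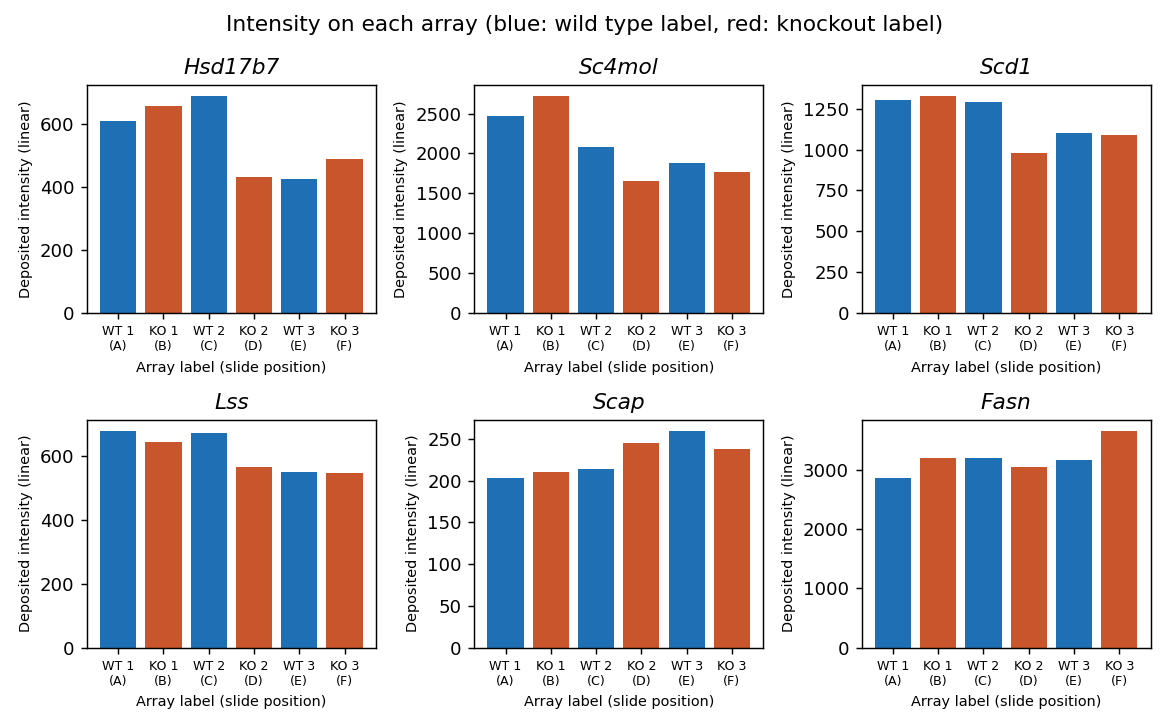
Deposited intensity (y axis, linear, from 0) of 6 genes on each array in slide order (x axis), blue for the wild type and red for the knockout label. Hsd17b7, Sc4mol, Scd1 and Lss are higher on the first 3 arrays than on the last 3 whatever the label, Scap is lower, and Fasn overlaps.

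Promoters of 25 of the 32 genes were found in the RefSeq table (build GRCm38.p6), all but those of Fdps, Fdft1, Sqle, Stard4, Scd1, Scd2 and Fads1. The 250 bases before each listed start were searched on both strands, and a gene was counted when any of its starts matched. CCAAT, the box bound by NF-Y, a partner of SREBP, was present in 19 of 25 member genes, or 76.0%, and in 37.5% of 27025 genes of all kinds in the table. GGGCGG, the GC box bound by Sp1, another partner, was present in 21 of 25, or 84.0%, against 35.4%. The E-box CACGTG was present in 5 of 25, or 20.0%, against 6.86%. TCACNCCAC, a form of the sterol response element, was present in 1 of 25, Hmgcs1, against 1.22%. None of these motifs contains another, and a match is a description of the letters only. The promoters of Mvd and Sc5d are printed because they belong to the 4 members with the smallest unadjusted p (Sqle and Fdps are the others), and those of Hsd17b7 and Sc4mol, chosen after their values were seen, because these genes spread most between arrays. All 4 lie on the minus strand and are written in the direction of the gene, with the CCAAT box, the GC box and the E-box of either strand in capitals, at chr8:122443423-122443672 for Mvd, chr9:42264301-42264550 for Sc5d, chr1:169969206-169969455 for Hsd17b7 and chr8:64733579-64733828 for Sc4mol. The Hmgcs1 stretch of 30 bases, at chr13:119690204-119690233 on the plus strand, shows the sterol response element in capitals, 137 to 129 bases before the start.
Mvd: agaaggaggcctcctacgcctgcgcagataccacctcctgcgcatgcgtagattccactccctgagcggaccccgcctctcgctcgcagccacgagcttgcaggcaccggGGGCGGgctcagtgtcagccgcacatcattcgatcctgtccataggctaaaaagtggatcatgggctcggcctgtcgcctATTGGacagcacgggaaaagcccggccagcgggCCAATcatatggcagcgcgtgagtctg
Sc5d: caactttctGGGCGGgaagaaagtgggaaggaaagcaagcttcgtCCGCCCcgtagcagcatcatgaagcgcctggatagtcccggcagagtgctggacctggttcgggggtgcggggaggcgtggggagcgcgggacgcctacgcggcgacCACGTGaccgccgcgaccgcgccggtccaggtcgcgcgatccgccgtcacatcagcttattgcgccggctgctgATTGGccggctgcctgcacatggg
Hsd17b7: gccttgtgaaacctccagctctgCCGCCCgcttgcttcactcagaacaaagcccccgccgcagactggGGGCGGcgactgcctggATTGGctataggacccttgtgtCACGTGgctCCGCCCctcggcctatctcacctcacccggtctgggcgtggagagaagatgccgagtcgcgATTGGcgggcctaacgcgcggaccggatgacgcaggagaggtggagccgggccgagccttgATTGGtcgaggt
Sc4mol: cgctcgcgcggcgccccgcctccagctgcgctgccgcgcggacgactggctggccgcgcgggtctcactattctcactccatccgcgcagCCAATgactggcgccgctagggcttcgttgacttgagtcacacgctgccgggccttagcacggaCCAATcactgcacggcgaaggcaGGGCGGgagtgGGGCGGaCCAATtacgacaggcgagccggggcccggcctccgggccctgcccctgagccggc
Hmgcs1: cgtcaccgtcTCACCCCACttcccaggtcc
Hsd17b7 and Sc4mol each held 3 CCAAT boxes in this window, Mvd held 2 and Sc5d held 1. Box numbers were not compared over the other promoters, so a relation to the range over the arrays was not tested. GC boxes numbered 3 in Hsd17b7, 2 in Sc4mol, 2 in Sc5d and 1 in Mvd. Scap, which alone was higher on D to F, was among the 6 genes without CCAAT and held the GC box and the E-box. Acat2, Acly, Acaca and Elovl6, which were higher on A to C, also lacked CCAAT.

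Fatty acid synthesis enzymes did not share 1 pattern. Acly, which makes cytosolic acetyl-CoA from citrate, measured 4069, 4062 and 3749 on the wild type arrays and 4340, 3446 and 3482 on the knockout arrays, with A to C above D to F (difference -0.08, SE 0.10). Acaca, the carboxylase that makes malonyl-CoA, measured 1622, 1902 and 1562 against 2035, 1509 and 1620 (difference 0.02, SE 0.12). Its A to C values lay above D to F only narrowly, since wild type 1 barely exceeded knockout 3. The platform annotation assigns this probe to Acaca, but the second deposited table names it LOC100043671. The dimmer probe that both name Acaca measured 87.1, 94.2 and 92.0 against 92.2, 96.8 and 93.3 and did not follow the position sets. Fasn, the synthase itself, measured 2860, 3211 and 3168 against 3199, 3049 and 3671, with its lowest value on wild type 1 and its highest on knockout 3. It had the highest difference of the 30 members, 0.10 (SE 0.09), and did not follow the position sets.

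Desaturases and elongases had lower means in the knockout label in 5 of 5 genes, and 0 passed. Scd1, which makes monounsaturated fatty acids, measured 1306, 1292 and 1105 against 1330, 977 and 1091 (difference -0.13, SE 0.12, limma adjusted p = 0.999). Its paralogue Scd2 measured 12539, 14545 and 12967 against 14427, 11300 and 12257 (difference -0.08, SE 0.10). Both were lowest on knockout 2, and Scd1 alone of the pair had A to C above D to F, since wild type 1 lay below wild type 3 for Scd2. Elovl6, which lengthens palmitate, measured 675, 668 and 639 against 727, 589 and 563 (difference -0.08, SE 0.10). Fads1 and Fads2 desaturate polyunsaturated fatty acids. Fads1 measured 3420, 3000 and 2810 against 3247, 2790 and 2580 (difference -0.10, SE 0.11), and Fads2 measured 260, 337 and 302 against 302, 259 and 275 (difference -0.09, SE 0.10). The array labelled knockout 1 ranked first or second in 4 of these 5 genes, and the lower means came from knockout 2 and 3.

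Other probes of the same genes did not always repeat these patterns. Of the 30 measured genes, 16 had more than 1 probe above the limit, with 18 further probes in all, of which 4 had A to C above D to F, 1 had the reverse and 13 overlapped, where 14.7% of all features had the first order and 15.3% the reverse. The 4 belonged to Cyp51 (686, 725 and 583 on the wild type arrays against 656, 623 and 562), Nsdhl (359, 359 and 330 against 395, 331 and 314), Stard4 (1048, 1018 and 981 against 1153, 857 and 958) and Mvk (50.4, 52.4 and 49.9 against 57.0, 49.1 and 49.7). Cyp51 and Nsdhl thus showed the split in 2 probes each. The remaining Nsdhl probe above the limit measured 352, 424 and 374 against 398, 339 and 317, and its position sets overlapped. The reverse was found for Sqle, whose second probe measured 621, 657 and 730 against 673, 752 and 732, lowest on wild type 1 where the other Sqle probe was highest. The labels thus lay apart for 1 of the 2 measured Sqle probes. The second Srebf2 probe measured 411, 350 and 381 against 343, 300 and 321, with every wild type array above every knockout array. The third Srebf2 probe measured 192, 195 and 206 against 227, 169 and 195, and its labels overlapped. Labels that did not overlap were found for 6.94% of all features. The second Hsd17b7 probe, at 77.1 to 87.5 and so nearer to the limit, measured 82.3, 87.5 and 82.6 against 79.5, 77.5 and 77.1 and did not follow the position sets. Its wild type arrays all lay above its knockout arrays, whereas the labels of the brighter Hsd17b7 probe overlapped. Where these probes lie on the transcripts was not analysed here. The 3 probes matched to Acaca or Acly through clone names were above the limit on 0 arrays.

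**Figure D4:**
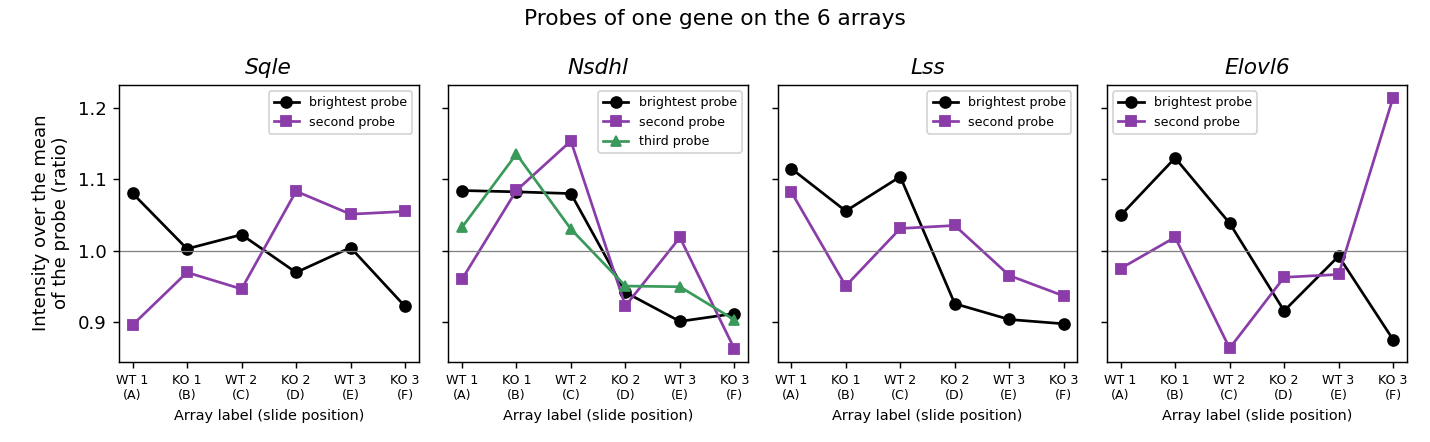
Intensity of each probe above the background limit, divided by the mean of that probe over the 6 arrays (y axis, ratio), on the arrays in slide order (x axis) for 4 genes, with 1 line per probe. The Nsdhl probes are mostly high on the first 3 arrays, whereas the 2 Sqle probes run in opposite directions.

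Neighbouring parts of lipid metabolism were read from the same fit. Of 18 other lipid synthesis genes 16 were measured and 0 passed, with a median difference of -0.06. Those with the smallest p were Ggps1, which makes geranylgeranyl diphosphate, at 0.16 (SE 0.08), and Acsl1, an acyl-CoA synthetase, at -0.24 (SE 0.16). Of 12 genes of sterol sensing and export 10 were measured and 0 passed (median -0.03), with Rnf139, a ubiquitin ligase of the endoplasmic reticulum, at -0.12 (SE 0.06) and Nr1h2, which encodes the sterol receptor LXR beta, at 0.11 (SE 0.07). Of 10 fatty acid oxidation genes 7 were measured and 0 passed (median 0.05), with Acadl, an acyl-CoA dehydrogenase, at 0.18 (SE 0.10) and Hadhb, a subunit of the trifunctional protein, at -0.14 (SE 0.09). By array, positions A to C lay above D to F for 6 of 16, 2 of 10 and 0 of 7 genes of these lists, and below for 2, 2 and 2, where the shares over all features were 14.7% and 15.3%, and with lists this small nothing was read from the counts. Without the arrays labelled wild type 3 and knockout 1, 8 genes of the 3 lists passed. Lower were 3 of 16, 2 of 10 and 0 of 7 (among them Acsl1, Aacs, Tmem97 and Mbtps1), beside 4.28% of all features. Higher were 2 of 16, 1 of 10 and 0 of 7 (Mid1ip1, Acacb and Abcg1), beside 3.78%. These genes were named after their values were seen, and nothing was read from counts this small.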

How the data were processed

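Total RNA of 6 samples was hybridised to Illumina mouse bead arrays on 1 slide, after Trizol extraction, column clean-up with DNase treatment and amplification to biotinylated cRNA, per the labels' protocols. The deposited intensities, on a linear scale, were used as the authors gave them. How they were normalized is not stated in the labels, and the columns share a maximum of 32123 and a median near 45.1. A second deposited table gave gene symbols, and its 12 value columns were not used because their running numbers match no sample label.

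Intensities were corrected with normexp (offset 50, which shrinks differences of dim probes) and log2-transformed with limma 3.58.1 (R 4.3.3). Probes above the background limit (46.3 to 46.4) on at least 3 of 6 arrays were kept. The platform annotation named 29976 probes and the symbol column 5136 more, through RefSeq symbols (GRCm38.p6), with 11520 unnamed and 10 of several genes. Each gene took its probe with the highest mean. The labels were compared by lmFit and eBayes without covariates, two-sided, with Benjamini-Hochberg adjustment over 16618 features, tested on simulated data. In the simulation 19.4% of 1.25-fold, 56.7% of 1.5-fold and 93.9% of 2-fold changes were called. The simulated noise was independent between arrays, unlike the split between positions A to C and D to F in these data, so these rates may not hold here. The lack of calls therefore does not show that changes were absent. Precision is limited by having 3 arrays per label. Every measured member is named, and so are 2 genes of each further list, by smallest p. The name and values of 1 other gene of those lists are not reported here. Members, lists and alternatives were chosen with earlier results of these data known. Alternatives covered background, normalization, filter, probe choice, variance model, array weights, blocks and omitted arrays.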

Additional observations from a re-analysis of the deposited data

How the results depend on the processing

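The count of members called was 0, and that of all features 0, under every alternative run (background, normalization, filter, probe choice, variance model, array weights, either block, each array left out in turn) except the joint omission of the arrays labelled wild type 3 and knockout 1, with 3 members, 1339 features and 8 other lipid genes. The median of the members ranged from -0.12 to -0.016 with 1 array left out, was -0.10 with array weights and -0.14 without both arrays. The 2 arrays were named from earlier results of these data. Signs of single members were unstable: of 540 recomputed values 47 changed sign, and 15 of 30 members kept theirs throughout. Log2 differences that changed sign were, with slide position as a block, Srebf2 0.0025, Scap -0.044, Insig2 -0.026, Pmvk 0.014, Sc4mol 0.066, Nsdhl 0.020 and Hsd17b7 0.062; with array weights, Insig1 -0.019, Acat2 -0.051, Dhcr7 -0.025, Stard4 -0.0073 and Acaca -0.078; and without both arrays, Insig1 -0.0037, Acat2 -0.15, Idi1 -0.0036, Dhcr7 -0.067, Stard4 -0.074 and Acaca -0.17. With 1 array left out, the ranges that crossed 0 were Srebf2 -0.11 to 0.012, Scap -0.030 to 0.13, Insig1 -0.059 to 0.070, Insig2 -0.055 to 0.061, Acat2 -0.086 to 0.10, Mvk -0.058 to 0.098, Pmvk -0.078 to 0.049, Idi1 -0.027 to 0.060, Tm7sf2 -0.0051 to 0.054, Sc4mol -0.31 to 0.045, Hsd17b7 -0.31 to 0.022, Dhcr7 -0.043 to 0.038, Stard4 -0.049 to 0.12 and Acaca -0.11 to 0.10. The cause was not tested. The replicate block left the median at -0.06 with 0 members called. Wild type and knockout arrays of replicates 1, 2 and 3 correlated in their deviations at 0.61, -0.30 and 0.53. Both arrays of replicate 1 lay in positions A to C and both of replicate 3 in D to F, while replicate 2 had 1 array in each. These values therefore cannot show whether the shared number pairs the arrays. The members' median deviation on each array kept its sign under the 4 other background and normalization settings. With the main setting included, it was 0.062 to 0.078, 0.045 to 0.055 and -0.050 to -0.044 on wild type 1, 2 and 3. On knockout 1, 2 and 3 it was 0.081 to 0.088, -0.088 to -0.083 and -0.087 to -0.079. Signal over background limits dim members such as Idi1 and Sc5d, whose differences the offset shrinks.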
